A study of Mus musculus with 2 samples.

Results

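Messenger RNA of 8 genes that encode matricellular and adhesive proteins of platelet alpha granules was followed in 2 libraries of mouse megakaryocytes, the bone marrow and fetal liver cells that release platelets. The 8 genes, Thbs1, Sparc, Clu, Timp1, Timp3, Selp, Srgn and Fn1, were taken by name from a list, and all 8 were found by Ensembl identifier among the 43346 Ensembl genes of the deposited tables. The libraries hold polyadenylated RNA of primary megakaryocytes from embryos of 14.5 days, male and female pooled, and form 1 group with biological replicate numbers 1 and 2. The labels name no genotype, strain, treatment or second condition, and give both libraries the same biosample and donor entry. How far they differ may therefore reflect technical handling as well as biology.

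Alpha granules are the largest secretory granules of platelets and are filled in the megakaryocyte. Part of their content is made by the cell itself, and part, such as fibrinogen, is taken up from plasma. On activation the granules fuse with the plasma membrane, which releases the soluble proteins and brings P-selectin to the surface. Matricellular proteins are secreted proteins that bind the extracellular matrix and modulate how cells attach to it without being part of its structure.

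The libraries differed in depth and in content. The expected counts, which are estimated fragments per gene, summed to 2275922 in replicate 2, against 42099216 in replicate 1, so a count of 0 allows up to 1.32 CPM (counts scaled to the same library total) in replicate 2, against 0.0713 CPM in replicate 1, by counting error only. All 10 megakaryocyte markers checked reached a mean of 1 TPM, a level per length of transcript, and their sum was 27019 TPM in replicate 2, against 17546 TPM in replicate 1. Macrophage markers (7 of 10 at that level, Cd163 and Timd4 at 0 counts in both libraries) summed to 229 TPM in replicate 2, against 874 TPM in replicate 1. Granulocyte markers (8 of 10, Ly6g at 0) summed to 150 TPM in replicate 2, against 854 TPM in replicate 1. Endothelial markers (3 of 10, Robo4 at 0) summed to 77.3 TPM in replicate 2, against 123 TPM in replicate 1, and stromal markers (2 of 10, with Col3a1, Pdgfra, Dcn, Lum and Acta2 at 0) to 2.61 TPM in replicate 2, against 3.62 TPM in replicate 1. Hepatocyte markers (2 of 10, with Alb, Apob, Ttr and Serpina1a at 0) summed to 10 TPM in replicate 2, against 56.7 TPM in replicate 1. Most of that sum was Trf, with 7.9 TPM in replicate 2, against 54.71 TPM in replicate 1. Mast cell markers (3 of 7, Mcpt4 and Fcer1a at 0) summed to 3.67 TPM in replicate 2, against 47.8 TPM in replicate 1. Of these, Prss34 had 1.51 TPM in replicate 2, against 32.98 TPM in replicate 1. Erythroid markers (6 of 8), mostly adult globins, summed to 15951 TPM in replicate 2, against 9577 TPM in replicate 1.

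Sequences are shown first for Srgn and Selp, abundant genes whose transcripts divide between alternative forms, as given below. Any link between these sequences and the transcript levels was not tested. The RefSeq promoter table (GRCm38.p6) holds 5 of the 8 genes. It gives Srgn, which lies on the minus strand of chromosome 10, a distal and a proximal start, at 62527445 and 62507757, and the 250 bases before each are printed below with those of Selp, whose start lies at 164115264 on the plus strand of chromosome 1. Searched on both strands were cores of 3 factor families that megakaryocytes use. These were AGATAA as well as TGATAA for GATA factors, CGGAAG as well as AGGAAG for ETS factors, and TGTGGT as well as TGCGGT for RUNX factors. Capitals mark the matches, none of which overlaps another, and the GATA letters were not in these windows. The regions are chr10:62527446-62527695, chr10:62507758-62508007 and chr1:164115014-164115263.
Srgn distal: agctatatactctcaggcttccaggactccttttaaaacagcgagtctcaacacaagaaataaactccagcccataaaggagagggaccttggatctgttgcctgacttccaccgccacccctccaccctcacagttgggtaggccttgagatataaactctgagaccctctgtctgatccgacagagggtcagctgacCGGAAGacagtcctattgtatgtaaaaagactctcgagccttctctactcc
Srgn proximal: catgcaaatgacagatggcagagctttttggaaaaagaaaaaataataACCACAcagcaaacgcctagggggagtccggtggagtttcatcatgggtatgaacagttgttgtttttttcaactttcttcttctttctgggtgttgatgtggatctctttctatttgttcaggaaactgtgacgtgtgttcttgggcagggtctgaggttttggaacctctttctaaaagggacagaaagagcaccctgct
Selp: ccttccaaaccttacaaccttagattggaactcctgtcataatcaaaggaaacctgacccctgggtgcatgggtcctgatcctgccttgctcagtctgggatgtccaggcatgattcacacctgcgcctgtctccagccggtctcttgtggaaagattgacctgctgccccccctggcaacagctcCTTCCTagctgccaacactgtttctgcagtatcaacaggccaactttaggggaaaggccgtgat

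The distal Srgn window held 1 ETS match, 51 bases before the start, and the proximal window 1 RUNX match, 202 bases before it. The Selp window held 1 ETS match, 64 bases before the start. Of the windows not printed, that of Timp1, which had 0 counts in both libraries, held 2 ETS matches, 175 and 99 bases before the start. The Timp3 window held 1 ETS match, 204 bases before the start, and the Sparc window held no match. Of 32851 promoter windows of the same length, 39.2% held an ETS match, 18.6% a RUNX match and 16.6% a GATA match, so the ETS letters in particular are common, and a match is a description of the letters only.

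Of the 8 genes, 7 reached a mean of 1 TPM, against 22.7% of all 43346 genes. Clu, Srgn, Thbs1 and Selp averaged 249 TPM or more, Timp3 22.9 TPM, Sparc 6.0 TPM and Fn1 2.54 TPM, while Timp1 had 0 counts in both libraries. Fn1 reached 1 TPM through replicate 1 alone. The levels of Selp and Fn1 lay mostly on transcripts not annotated as coding. On coding transcripts alone, Selp averaged 20.6 TPM and Fn1 0.115 TPM. The 8 genes together made 2920 TPM in replicate 2, against 1752 TPM in replicate 1. Clu took 71.0% of that sum in replicate 2, against 34.1% in replicate 1, and Srgn took 3.39% in replicate 2, against 38.5% in replicate 1. In a bulk sample, fewer cells of a type and less RNA per cell cannot be told apart.

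**Figure D1:**
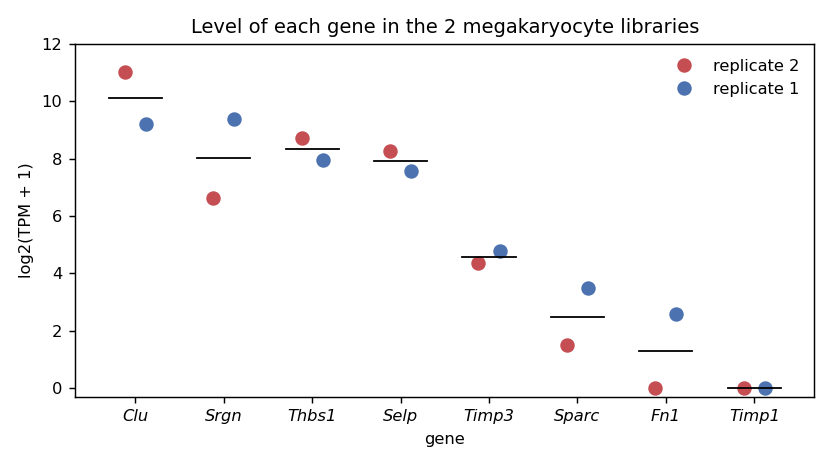
Level of each gene as log2(TPM + 1) on the vertical axis, with 1 point per library and a line at the mean of both points. Clu, Srgn, Thbs1 and Selp lie above 6 in both libraries, Timp1 lies at 0 in both, and the 2 points of Srgn lie furthest apart.

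The order by mean was Clu, Srgn, Thbs1, Selp, Timp3, Sparc, Fn1 and Timp1. The ranges over the 2 libraries overlapped between Clu and Srgn, between Srgn and Thbs1 and between Thbs1 and Selp. Within each library, Thbs1 stood above Selp, 1.36-fold in replicate 2 and 1.3-fold in replicate 1. Clu over Srgn was 20.9 in replicate 2, against 0.885 in replicate 1, so their order reversed. Srgn over Thbs1 was 0.237 in replicate 2, against 2.72 in replicate 1, and reversed as well. Clu did not overlap Thbs1 or Selp, since its lower value of 596.73 TPM lay above their higher values of 417.46 TPM and 307.8 TPM. They did not overlap between Selp and Timp3, where the lower Selp value was 190.68 TPM and the higher Timp3 value 26.44 TPM. They did not overlap between Timp3 and Sparc either, where the lower Timp3 value was 19.42 TPM and the higher Sparc value 10.2 TPM. Sparc and Fn1 overlapped, though Sparc was the higher in each library, from 2 counts against 0 in replicate 2. By library, Clu led in replicate 2 and Srgn in replicate 1, and Srgn was the fourth of the 8 in replicate 2.

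Among the matricellular proteins, Thbs1 encodes thrombospondin 1, a large trimeric glycoprotein that is among the most abundant alpha granule proteins and is known to activate latent TGF-beta. Thbs1 (ENSMUSG00000040152.8, chromosome 2, 118111876 to 118127133, plus strand, GRCm38) had 417.46 TPM from 4322 counts in replicate 2, against 248.06 TPM from 55379 counts in replicate 1. It ranked 402 in replicate 2, against 588 in replicate 1 among 43346 genes, and its mean was 333 ± 120 TPM (SD, n = 2). Its ratio of replicate 2 to replicate 1, from counts scaled by TMM (trimmed mean of M values, a factor for library composition), was 1.96, with an exact 95% interval of 1.90 to 2.02 for counting error only. That is under the 2-fold limit used here. The ratio was 2.0 with DESeq2 size factors and 2.37 after removal of the trend with GC content, both at or past the limit, and 1.44 with total counts.

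Sparc encodes SPARC (osteonectin), a calcium-binding matricellular glycoprotein that binds collagen. Sparc (ENSMUSG00000018593.8, chromosome 11, 55394500 to 55423183, minus strand) had 1.81 TPM from 2 counts in replicate 2, against 10.2 TPM from 533 counts in replicate 1, with a mean of 6.0 ± 5.93 TPM (SD, n = 2). The scaled ratio was 0.0941, with an exact interval of 0.0114 to 0.341. In CPM the level was 0.879 in replicate 2, under the limit that a count of 0 allows there, and 12.7 in replicate 1. Sparc was thus low in both libraries, and its level in replicate 2 rests on 2 counts.

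Clu encodes clusterin, a secreted chaperone that binds misfolded proteins and inhibits the terminal complement complex. Clu (ENSMUSG00000022037.10, chromosome 14, 65968483 to 65981547, plus strand) had 2074.02 TPM from 6409 counts in replicate 2, against 596.73 TPM from 39070 counts in replicate 1, with a mean of 1335 ± 1045 TPM (SD, n = 2). It was the 79th highest gene in replicate 2 and the 247th in replicate 1. Its ratio of 4.11 (exact interval 4.0 to 4.22) was the only one of the 8 at least 2-fold higher in replicate 2 with TMM scaling. It remained above 2-fold under each alternative run, from 3.03 with total counts upwards.

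The inhibitors of metalloproteinases diverged. TIMP1 and TIMP3 are tissue inhibitors that block matrix metalloproteinases, and TIMP3 also binds the matrix and inhibits ADAM17. Timp3 (ENSMUSG00000020044.9, chromosome 10, 86300372 to 86349506, plus strand) had 19.42 TPM from 165 counts in replicate 2, against 26.44 TPM from 4756 counts in replicate 1, a mean of 22.9 ± 4.96 TPM (SD, n = 2). Its scaled ratio of 0.870 had an interval of 0.740 to 1.02, which includes 1, and after removal of the GC trend it was 1.28, on the other side of 1. With TMM it was the ratio nearest to 1 among the genes with counts. Timp1 (ENSMUSG00000001131.7, chromosome X, 20870166 to 20874735, plus strand) had 0 counts in both libraries, which allows up to 1.32 CPM in replicate 2, against 0.0713 CPM in replicate 1. Timp2, from the list of related genes, had 8.48 TPM in replicate 2, against 8.10 TPM in replicate 1, and Timp4 had no counts. Timp1 and Timp3 lie on the plus strand within the genes of synapsin 1 and synapsin 3, which run on the minus strand. Syn1 had 4.15 TPM from 24 counts in replicate 2, against 1.76 TPM from 216 counts in replicate 1, and Syn3 had 0.14 TPM in each library.

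The adhesion receptor P-selectin, encoded by Selp, is stored in the alpha granule membrane and binds the leukocyte ligand PSGL-1 once it reaches the platelet surface. Selp (ENSMUSG00000026580.12, chromosome 1, 164115264 to 164150026, plus strand) had 307.8 TPM from 631 counts in replicate 2, against 190.68 TPM from 11324 counts in replicate 1, with a mean of 249 ± 82.8 TPM (SD, n = 2). Its scaled ratio was 1.40 (exact interval 1.29 to 1.51), inside the 2-fold limit. The ratio depended on the scaling, at 1.03 with total counts and 1.74 after removal of the GC trend. By TPM it was 1.61, a value that also depends on how the counts were divided among transcripts. The short form Selp-201 had 72.38 TPM from 25.8 counts in replicate 2, against 0 in replicate 1. Selp is also made by endothelial cells. Of the 10 endothelial markers, Tie1 had 49.62 TPM in replicate 2, against 30.79 TPM in replicate 1, Egfl7 had 20.3 TPM in replicate 2, against 87.03 TPM in replicate 1, and Plvap had 6.05 TPM in replicate 2, against 3.83 TPM in replicate 1. The other 7 averaged at most 0.41 TPM, Cdh5 among them. The part of those cells in the Selp level was not tested.

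Srgn encodes serglycin, the proteoglycan of secretory granules, whose negatively charged chains hold positively charged proteins such as platelet factor 4. Srgn (ENSMUSG00000020077.10, chromosome 10, 62493833 to 62527451, minus strand) had 99.03 TPM from 120 counts in replicate 2, against 674.4 TPM from 16894 counts in replicate 1, with a mean of 387 ± 407 TPM (SD, n = 2). It ranked 1240 in replicate 2, against 217 in replicate 1. The scaled ratio was 0.178 (exact interval 0.148 to 0.213), a 5.62-fold lower value in replicate 2, and it lay between 0.131 and 0.267 under the alternatives run. Pf4, which encodes its partner platelet factor 4, had 633.39 TPM in replicate 2, against 2931.91 TPM in replicate 1, a ratio of 0.249. Serglycin is also a granule proteoglycan of granulocytes, macrophages and mast cells, whose summed marker levels were lower in replicate 2 as given above, and their part in the Srgn ratio was not tested.

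Fn1 encodes fibronectin, an adhesive glycoprotein of plasma and matrix that binds integrins through an RGD sequence. Fn1 (ENSMUSG00000026193.11, chromosome 1, 71585520 to 71653200, minus strand) had 0 TPM from 0 counts in replicate 2, against 5.07 TPM from 343 counts in replicate 1. Against a floor of 3 counts in replicate 2, it was at least 4.56-fold lower there. Macrophages and fibroblasts are known to make fibronectin. Of the 10 stromal markers, 5 had no counts in either library. Pdgfrb had 1.02 TPM in replicate 2, against 1.79 TPM in replicate 1. Reln had 1.09 TPM in replicate 2, against 1.31 TPM in replicate 1. Of the macrophage markers, Csf1r had 2.96 TPM in replicate 2, against 48.55 TPM in replicate 1. C1qc had 144.84 TPM in replicate 2, against 344.34 TPM in replicate 1, and Cd163 and Timd4 had no counts. The part of either cell type in the Fn1 level was not tested.

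Across the 7 genes with a count, Clu was at least 2-fold higher in replicate 2 and Srgn, Sparc and Fn1 at least 2-fold lower. Among 8194 genes whose counts averaged 100 or more, 15.7% were higher in replicate 2 by that measure and 33.8% lower, and the 1 higher and 3 lower of 7 have to be read against these shares. Sparc and Fn1 passed the count minimum through replicate 1 alone, so nothing is drawn from the number of lower genes. The median log2 ratio was -0.20 over the 7 genes and -0.30 over the 8194, with genes at 0 set to 3 counts. A minimum of 50 CPM by mean, which weighs both libraries alike, left 26.4% of 2576 genes higher and 15.8% lower by 2-fold. Sparc and Fn1 did not reach that minimum. Of all calls, 31.8% were higher in replicate 2 with TMM, 14.4% with total counts and 62.6% with the CPM minimum. Leaving out genes at 0, the median over the genes whose counts averaged 100 or more was -0.21 with TMM and -0.65 with total counts. With TMM it was 0.18 without a minimum count and 0.37 with the CPM minimum, so its sign depends on the genes included. Each ratio sets a single library against another, so none has a replicate check.

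**Figure D2:**
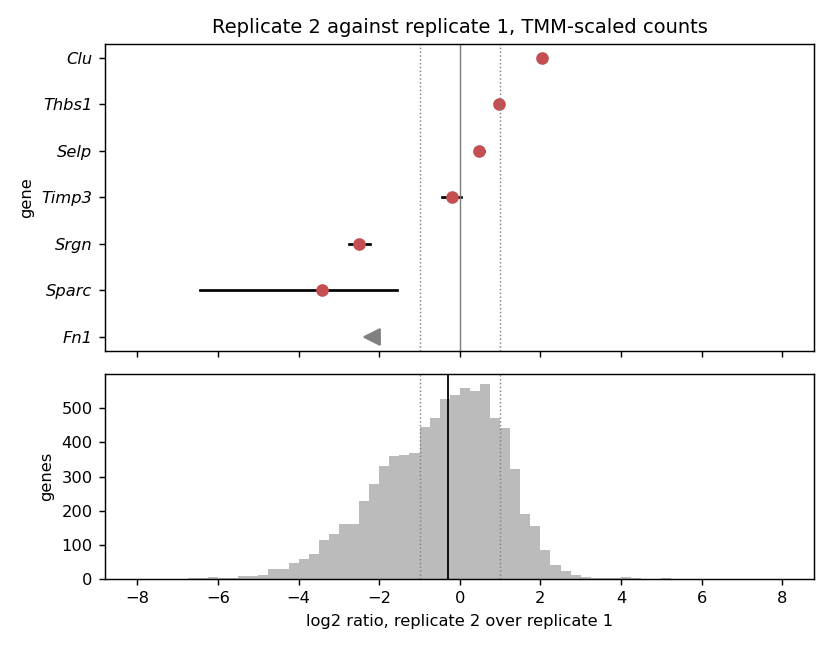
The upper panel shows the log2 ratio of replicate 2 to replicate 1 from TMM-scaled counts for the 7 genes with counts, with exact 95% intervals for counting error. The arrow gives the value that 3 counts of Fn1 in replicate 2 would give, without its interval. The lower panel is a histogram of the same ratio for the 8194 genes whose counts averaged 100 or more, with a line at their median of -0.30 and dotted lines at 2-fold. Clu lies at 2.04 and Srgn at -2.49, both within the spread of all genes.

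The transcript tables divide each gene among its annotated transcripts. For Clu, Thbs1 and Timp3 a single coding transcript carried nearly all of the level. Clu-201 took 100% in replicate 2, against 99.3% in replicate 1, Thbs1-201 took 97.6% in replicate 2, against 99.6% in replicate 1, and Timp3-201 took 100% in both. The dominant transcript was the same in both libraries for 5 of the 6 genes with counts in both, and it differed for Sparc. Over 4606 genes with at least 2 transcripts, a mean of at least 5 TPM and a count in both libraries, it differed in 33.4%.

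**Figure D3:**
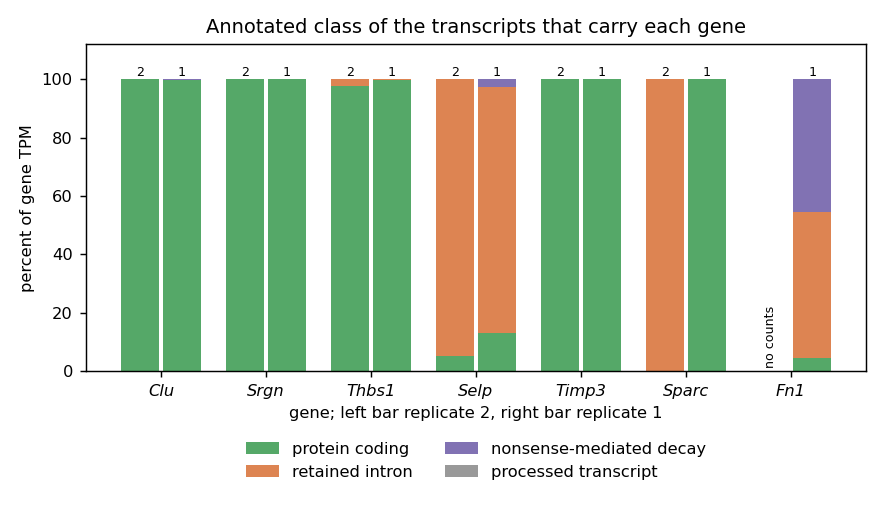
Share of each gene's TPM, in percent, carried by transcripts of each annotated class, with replicate 2 as the left bar and replicate 1 as the right bar. Coding transcripts fill the bars of Clu, Srgn, Thbs1 and Timp3 almost wholly, Fn1 had no counts in replicate 2, and the retained-intron class fills most of both Selp bars. The Sparc bar of replicate 2 rests on 2 counts.

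The level of Selp was mostly assigned to a transcript with no annotated protein. Selp-202, annotated as a retained intron, took 219.38 TPM from 507 counts in replicate 2, against 160.05 TPM from 7890 counts in replicate 1, or 71.3% of the gene in replicate 2, against 83.9% in replicate 1. Selp-205, the single annotated coding transcript, with 16 exons and 3438 bases, took 16.04 TPM from 98.1 counts in replicate 2, against 25.25 TPM from 3271 counts in replicate 1. That was 5.21% of the gene in replicate 2, against 13.2% in replicate 1, a mean of 20.6 ± 6.51 TPM (SD, n = 2). Its range overlapped that of Timp3, which was the higher in each library. Selp-201, another retained-intron form, took 72.38 TPM from 25.8 counts in replicate 2, against 0 in replicate 1.

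The Selp window printed above precedes the start of Selp-205. Selp-202 starts at 164144702 and covers only the 3′ end of the gene. It has 4 exons and 1392 bases, of which 1199 (86.1%) are also in Selp-205 and 193 are intron, and its bases take in 34.9% of Selp-205. Only 203 of its bases lie in the coding part of Selp-205. Fragments from the shared 3′ end can therefore be assigned to either form, and how the division between the 2 forms depends on coverage along the gene was not tested. The stretch where intron meets exon, chr1:164144835-164144924 on the plus strand (GRCm38, from the GENCODE M21 transcript), is printed because the retained intron is the part of Selp-202 that Selp-205 lacks. Capitals mark the last 60 bases of the intron and lower case the first 30 bases of the exon.
Selp-202: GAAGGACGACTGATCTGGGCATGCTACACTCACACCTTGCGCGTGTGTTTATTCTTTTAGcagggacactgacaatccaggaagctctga

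Of 4600 protein coding genes with at least 2 transcripts, a mean of at least 5 TPM and a count in both libraries, 22.1% had over 50% of their TPM on transcripts that are not annotated as coding in both libraries, so Selp is 1 of many in this respect. The antisense gene Gm16587, which overlaps the region, had 0 counts in both libraries, and the overlapping lincRNA Gm16548 had 3 counts in replicate 2, against 26 in replicate 1.

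**Figure D4:**
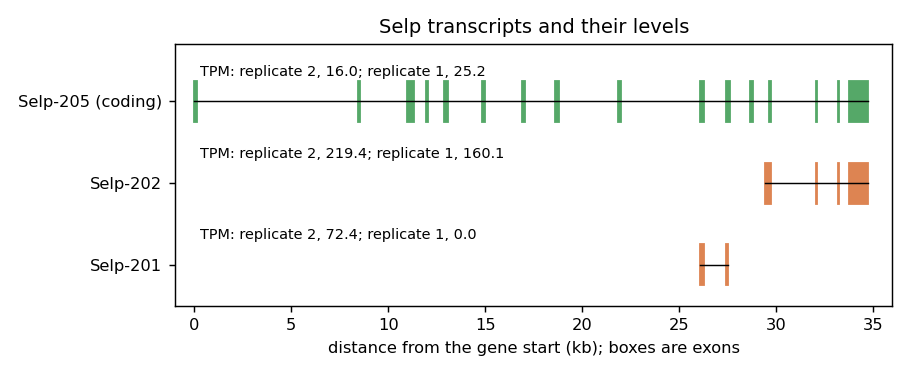
Exons of the 3 Selp transcripts that took at least 5% of the gene in either library, by distance in kb from the start of Selp-205, with the TPM of each in both libraries. Selp-202 begins near the 3′ end of the gene and carries 219 TPM in replicate 2, against 160 TPM in replicate 1.

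Srgn was divided between 2 coding transcripts that start near the proximal promoter printed above. Srgn-205 took 60.1% of the gene in replicate 2 (59.48 TPM), against 68.6% in replicate 1 (462.78 TPM), and Srgn-201 took 38.9% in replicate 2 (38.52 TPM), against 30.8% in replicate 1 (207.83 TPM). Both carry a coding part of 456 bases. Srgn-205 shares 668 of its 694 bases with Srgn-201. Its other 26 bases are a first exon at 62507913 to 62507938, which lies inside the proximal window printed above, so that window precedes the start of Srgn-201 but holds the start of Srgn-205. The RUNX match in it ends 16 bases before the Srgn-205 start. The 3 transcripts that start at the distal site, 19696 bases upstream of the Srgn-201 start, together took 1.05% in replicate 2 from 3.05 counts and 0.472% in replicate 1 from 199 counts. The proximal transcripts took 98.9% in replicate 2, against 99.5% in replicate 1. Both main transcripts were lower in replicate 2, and Srgn-205 held the larger share in each library.

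Fn1 and Sparc had few counts to divide. In replicate 1, 45.4% of Fn1 was assigned to Fn1-209, a transcript annotated for nonsense-mediated decay, 25.2% to Fn1-202 and 24.9% to Fn1-204, both retained-intron forms. The coding transcripts of Fn1, 9 of 17 annotated, took 4.54%, or 0.23 TPM, all of it on Fn1-217. Each of the 3 leading forms shares most of its bases with Fn1-217, from 63.8% for Fn1-204 to 84.8% for Fn1-209. By counts, Fn1-202 led with 196 of 343. In replicate 1 Sparc was divided among 3 coding transcripts, with 49.0% on Sparc-206, a form of 640 bases, 40.8% on Sparc-201 and 10.2% on Sparc-202. By counts Sparc-201 led with 353 of 533. The 2 counts of replicate 2 were assigned to Sparc-205, a retained-intron form.

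Of 16 related genes of the same families, 15 were found and 2 reached a mean of 1 TPM, beside 22.7% of all genes. These were Timp2 at 8.29 ± 0.269 TPM and Spock2, a proteoglycan of the SPARC family, at 4.27 ± 1.76 TPM (SD, n = 2). Thbs4, Sparcl1, Smoc2, Fstl1, Timp4 and Sele, the endothelial selectin, had no counts in either library. Thbs1 was the only thrombospondin above a mean of 1 TPM. Thbs2, Thbs3 and Comp reached at most 0.49 TPM by mean.

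Receptors and ligands of the 8 proteins were mostly present. Of 13, 11 reached a mean of 1 TPM, with medians of 30.3 TPM in replicate 2, against 25.7 TPM in replicate 1. TPM and the ratio of scaled counts differed in direction for some genes. Itga2b, the integrin subunit that binds fibrinogen and fibronectin on platelets, had 3388.4 TPM in replicate 2, against 4430.19 TPM in replicate 1, while its scaled ratio was 1.29. Its partner Itgb3 had 127.31 TPM in replicate 2, against 172.69 TPM in replicate 1. Of the thrombospondin receptors, Cd47 had 34.21 TPM in replicate 2, against 29.71 TPM in replicate 1, and Cd36 had 0 counts in both. Lrp1, an endocytic receptor that takes up thrombospondin 1, had 10.42 TPM in replicate 2, against 199.86 TPM in replicate 1. Selplg, the gene of the P-selectin ligand PSGL-1 of leukocytes, had 27.83 TPM in replicate 2, against 112.33 TPM in replicate 1. Of the 11 whose counts averaged 100 or more, 1 was at least 2-fold higher in replicate 2 and 3 were at least 2-fold lower, close to the 15.7% and 33.8% over all 8194 genes. Of the 3, Itga4 passed through replicate 1 alone, with 1 count in replicate 2, against 298 in replicate 1. The median log2 ratio was 0.37, beside -0.30 over the 8194 genes.

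Of 19 metalloproteinases, a group that includes enzymes which the TIMP proteins inhibit, 8 reached a mean of 1 TPM, led by Adam15, Adam10 and Adam8. Adam15 had 37.78 TPM in replicate 2, against 129.16 TPM in replicate 1, and Adam10, a membrane sheddase, had 44.0 TPM in replicate 2, against 24.87 TPM in replicate 1. Adam17, the sheddase that TIMP3 inhibits, had 4.66 TPM in replicate 2, against 11.62 TPM in replicate 1. Mmp14, a membrane-bound collagenase, had 2.42 TPM in replicate 2, against 19.41 TPM in replicate 1, and Mmp9 had 1.10 TPM in replicate 2, against 2.18 TPM in replicate 1. Mmp3, Mmp13, Adamts5 and Adamts13 had no counts. Of 8 whose counts averaged 100 or more, 6 were at least 2-fold lower in replicate 2 and 0 at least 2-fold higher, beside 33.8% and 15.7% of all 8194 genes. The median log2 ratio was -1.15. Some passed the minimum through replicate 1 alone, such as Mmp19 with 0 counts in replicate 2, against 425 in replicate 1, so nothing is drawn from the count.

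Serglycin needs enzymes that build its chondroitin sulfate chains, and 13 of 17 such genes reached a mean of 1 TPM. The highest were Chst12, a chondroitin sulfotransferase, with 148.39 TPM in replicate 2, against 276.4 TPM in replicate 1, and B3gat3, which completes the linker to the protein, with 125.92 TPM in replicate 2, against 116.33 TPM in replicate 1. Chpf2, a chondroitin polymerizing factor, had 45.42 TPM in replicate 2, against 34.78 TPM in replicate 1. Of xylosyltransferases, which start the chain, Xylt2 had 5.39 TPM in replicate 2, against 17.57 TPM in replicate 1, and Xylt1 stood at 0 TPM in replicate 2, against 0.40 TPM in replicate 1. Chst3 had no counts. Of 13 whose counts averaged 100 or more, 2 were at least 2-fold higher in replicate 2 and 2 at least 2-fold lower, beside 15.7% and 33.8% of all 8194 genes. The median log2 ratio was 0.14, beside -2.49 for Srgn and -0.30 over the 8194 genes.

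Other alpha granule cargo was led by TGF-beta 1 and platelet factor 4. Of 20 genes, 13 reached a mean of 1 TPM, led by Tgfb1 with 7375.99 TPM in replicate 2, against 4153.49 TPM in replicate 1, then Pf4 and Ecm1. Ecm1, extracellular matrix protein 1, had 564.78 TPM in replicate 2, against 263.83 TPM in replicate 1. Of 13 whose counts averaged 100 or more, Tgfb1 and Ecm1 were at least 2-fold higher in replicate 2 and 8 were at least 2-fold lower, beside 15.7% and 33.8% of all 8194 genes. The median log2 ratio was -1.12. Igf1, with 0 counts in replicate 2, against 384 in replicate 1, and F13a1, with 11 counts in replicate 2, against 4200 in replicate 1, passed through replicate 1, so nothing is drawn from this count either. Vwf had 335.71 TPM in replicate 2, against 357.13 TPM in replicate 1, while its scaled ratio was 1.16. Fga, Fgg, Egf, Vtn and Plg, of which fibrinogen, vitronectin and plasminogen are plasma proteins made by hepatocytes, had no counts in either library, and Fgb had 1 count, in replicate 2. Of 14 other matricellular genes, 5 reached a mean of 1 TPM, led by the galectins Lgals3 (791.59 TPM in replicate 2, against 556.36 TPM in replicate 1, with a scaled ratio of 0.814) and Lgals1 (61.05 TPM in replicate 2, against 501.74 TPM in replicate 1), then Spp1, which encodes osteopontin, with 0 TPM in replicate 2, against 5.64 TPM in replicate 1. Tnc, Postn, Ccn4 and Fbln1 had no counts. All 4 genes of granule biogenesis reached that level. Gfi1b, a transcription factor, had 602.64 TPM in replicate 2, against 217.22 TPM in replicate 1. Nbeal2, whose loss causes grey platelet syndrome in humans, had 104.5 TPM in replicate 2, against 101.85 TPM in replicate 1, and Vps33b had 1.74 TPM in replicate 2, against 4.78 TPM in replicate 1.

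**Figure D5:**
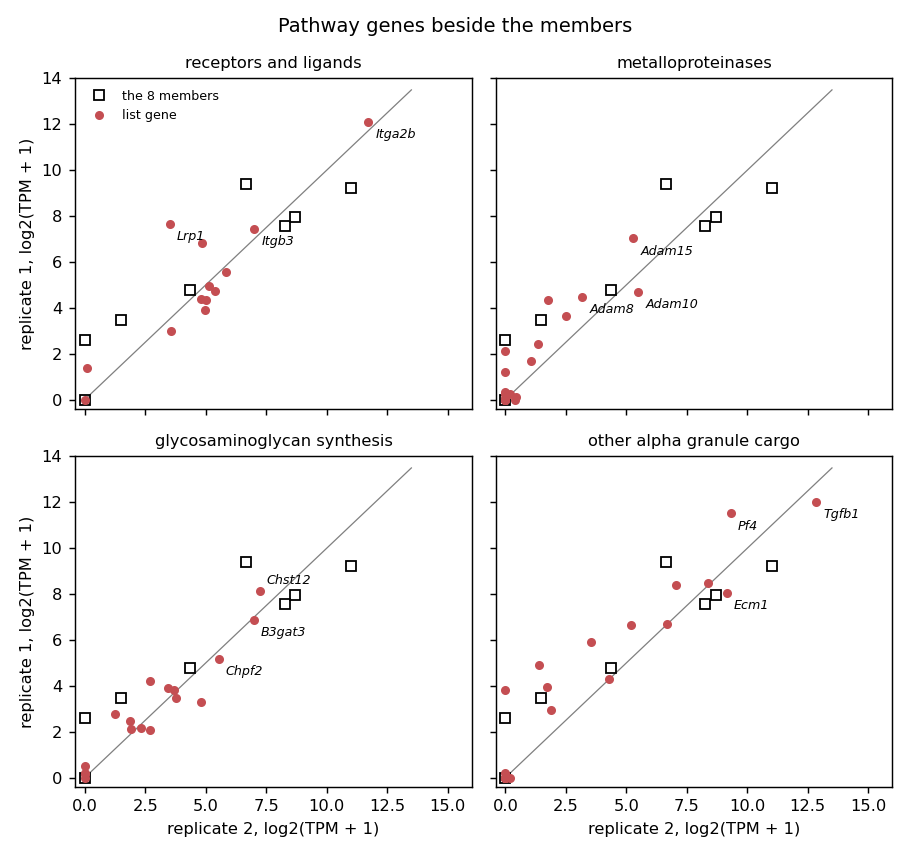
Level in replicate 2 (horizontal) against replicate 1 (vertical), both as log2(TPM + 1), for the genes of 4 lists (filled points, the 3 highest named) beside the 8 members (open squares), with the line of equal levels. The highest cargo gene, Tgfb1, lies below the line and Pf4 above it. Igf1 and F13a1 lie near the left edge, with few or no counts in replicate 2.

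For each gene with a mean of at least 1 TPM, the protein coding gene nearest in level was taken by distance over log2(TPM + 1) of the 2 libraries, which measures likeness of level only. Clu lay nearest to Abhd17a (2098.8 TPM in replicate 2, against 568.89 TPM in replicate 1, distance 0.071), and Srgn to Ifitm2, an interferon-induced membrane protein gene (102.15 TPM in replicate 2, against 731.48 TPM in replicate 1, distance 0.125). Thbs1 lay nearest to Nr1h2 (distance 0.046), Selp to Mapk3 (0.116), Timp3 to Phkg2 (0.006), Sparc to Naa15 (0.045) and Fn1 to C87436 (0.007).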

How the data were processed

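For each of 2 libraries the authors deposited a gene table and a transcript table, made on mm10 with annotation M4 per the file lists beside them. Of the aligner and quantifier, nothing is given in the sources used here. Expected counts, per the file headers, are estimated fragments that need not be whole, and TPM is the authors' level per effective length. Whether strand was used in counting is not stated, so reads of a gene and an overlapping antisense gene may not be separable. The deposited isoform percent was recomputed from transcript TPM.

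The 43346 Ensembl genes were kept. All remaining entries together held 0 counts in replicate 2, against 15 in replicate 1. Symbols (42462 genes), positions and transcript classes came from GENCODE M21 on GRCm38, the assembly of mm10. Rounded expected counts gave TMM factors from genes averaging 10 counts or more (edgeR 4.0.16, R 4.3.3), 0.859 for replicate 2 and 1.16 for replicate 1, and DESeq2 1.42.0 gave alternative size factors. Ratios used no prior count. Exon overlaps were taken against the longest coding transcript with at least 1% of the gene in replicate 1. The ratio step was tested on simulated data in which a small set of genes changed, as many up as down. In the libraries themselves, 15.7% of genes were 2-fold higher and 33.8% lower in replicate 2. The simulation therefore does not check the scaling for such a difference. Intervals are exact (Clopper-Pearson, 95%). Since fragments carry no molecular identifiers and may be copies of 1 molecule, intervals and floors cover counting error only. With 1 group there is no test between conditions. Other steps used Python 3.11.15, pandas 2.3.3, scipy 1.17.1, statsmodels 0.14.6 and matplotlib 3.10.9. The 8 genes and all lists were chosen with earlier results of these data known. Named were all 8 genes, transcripts with at least 5% of a gene, the 3 highest genes of each list and those at 0, overlapping genes and the nearest gene by level. Other genes named by value, among them Tie1, Egfl7, Plvap, Cdh5, Csf1r, C1qc, Pdgfrb, Reln, Trf, Prss34, Mmp19, Itga4, Igf1, F13a1, Adam17, Mmp9, Mmp14, Cd47, Selplg, Vwf and Xylt2, were chosen after their values were seen.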

Additional observations from a re-analysis of the deposited data

How the results depend on the processing

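No paired analysis was possible because the libraries form 1 group. The count of 7 genes at a mean of 1 TPM ranged from 6 to 7 when 1 library was left out, and was also 6 or 7 with posterior mean TPM, a minimum of 5 TPM or a mean count of at least 10. None of these settings varied the division among transcripts. On coding transcripts alone, Fn1 averaged 0.115 TPM, under that level. Of the 7 genes with counts, 4 were past 2-fold, 1 higher and 3 lower in replicate 2. With DESeq2 size factors and after removal of the GC trend the number higher was 2, since Thbs1 crossed the limit. With a mean of at least 50 CPM 2 genes were past 2-fold and 1 was lower, since Sparc and Fn1 were too shallow to be included. Of the values other than these counts, 68 stayed within their error or count limit and 17 did not. With 2 libraries, a mean TPM with 1 library left out always lies within the SD. The minimum counts also leave the ratio of each single gene unchanged. Many of the 68 were thus fixed in advance, and their number is no measure of stability. The ratios of Clu, Srgn and Sparc kept their direction under each alternative run. Fn1, at 0 counts in replicate 2, has a bound and no ratio. Its posterior mean TPM was 5.92 in replicate 2, against 5.32 in replicate 1. Since the expected count of Fn1 in replicate 2 was 0, no direction is read from these values. The ratio of Timp3, not past 2-fold, was 1.28 after removal of the GC trend and 0.642 with total counts. Ordered by mean CPM rather than TPM, 3 genes changed place, since Srgn fell behind Thbs1 and Selp. Srgn had 52.7 CPM in replicate 2, against 401 CPM in replicate 1. Selp had 277 CPM in replicate 2, against 269 CPM in replicate 1. The same dominant transcript was found in both libraries for 5 genes under each transcript unit run. The depth of replicate 2 limits Sparc, Fn1 and the distal Srgn transcripts, each with at most 3.05 counts there.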

Other observations

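The authors' posterior mean TPM, a second estimate in the same tables, gave Fn1 5.92 TPM in replicate 2 and 5.32 TPM in replicate 1, although its expected count was 0 in replicate 2. For Timp1, with 0 counts in both libraries, it gave 1.07 TPM in replicate 2 and 0.07 TPM in replicate 1. This estimate thus stood above 0 for genes at 0 counts, where it is no evidence of a level. For the abundant genes it stood under the TPM used above in replicate 2, at 1474.38 TPM for Clu and 296.49 TPM for Thbs1, and near it in replicate 1, at 585.57 TPM for Clu and 243.36 TPM for Thbs1.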
